A study of Homo sapiens with 12 samples.

Results

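SR11302 was compared with no treatment in BEAS-2B, a line of human bronchial epithelial cells immortalised with a virus that carries SV40 sequences. SR11302 is a synthetic retinoid described as blocking the transcription factor AP-1, and the treated cells received it at 10 µM for 72 h. The comparison rests on all 4 libraries of these 2 groups among the 12 of the series: 2 labelled SR11302 and 2 labelled as not treated (NT). No gene was altered in either group. The other 8 libraries are A549, a lung adenocarcinoma line, without treatment and with SR11302 or SP600125, an inhibitor of the JNK kinases (2 libraries each), and BEAS-2B with 50 µM SP600125 for 72 h (2 libraries). A549 cells received SR11302 at 10 µM or SP600125 at 50 µM, each for 72 h. SR11302 and SP600125 were dissolved in DMSO. The labels give the NT cells as untreated, while the study's account of the RNA comparison calls its controls DMSO-treated, so whether the NT cells received the solvent is not settled. BEAS-2B is a single line. Nothing says that libraries of a group came from separate cultures, so p-values measure only the spread between libraries, which may be technical. The comparison covers every gene listed, and 16373 of 26485 passed the filter on low counts and were tested.

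AP-1 is a family of dimers of Jun, Fos and related proteins. It binds a short palindrome in promoters and enhancers and is known for its part in growth, migration, inflammation and matrix turnover. Cells sense their sterols in the endoplasmic reticulum, where the SREBP factors are held back by INSIG proteins and are released to the nucleus when sterols run low, where they switch on the enzymes of cholesterol synthesis. Bronchial epithelial cells rest on a basement membrane of type IV collagen and laminins, and fibrillar collagens and fibronectin lie beyond it.

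Across all genes the 2 groups differed widely. Of the 16373 genes tested, 3677 (22.5%) were called, which takes an adjusted p under 0.05 together with a log2 fold change of 0.5 or more in size, and of these 1863 were higher (11.4%) and 1814 lower (11.1%) with SR11302. A change of 2-fold or more was called for 790 higher and 956 lower genes, and of 4-fold or more for 265 and 372. Scaled by library size alone instead of TMM, the calls split into 2345 higher and 1495 lower, so the share of calls that were higher moved from 50.7% to 61.1%. The median log2 fold change over all genes was 0.01. Leaving out 1 library lowered the counts, to 1129 higher without NT replicate 1, and to 1171 lower without NT replicate 2 and 1202 lower without SR11302 replicate 2.

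Several properties of the libraries moved with the groups. Reads in no annotated gene made up 24.1 and 25.8% of tallied reads in the NT libraries and 14.6 and 14.7% in the SR11302 libraries, against 15.1% in both SP600125 libraries. Reads aligned to several places made up 17.3 and 17.7% in NT and 19.5 and 21.1% in SR11302. Of 304 tested genes in which under 50% of the 50-base exon windows were unique in the genome, 166 were lower and 7 higher, with a median of -0.89. With p-values adjusted over the 13162 genes with at least 95% unique windows alone, called unique genes from here on, 2624 were called (19.9%), 1616 higher (12.3%) and 1008 lower (7.66%). How far these library differences enter the changes was not tested, and treatment and library preparation cannot be told apart. Counts over unique genes are given for the main lists and for each list in which they move a count by over 1.5 times. The comparison with SP600125, given at the end, uses no NT library but is not free of such differences, since reads aligned to several places made up 15.3 and 14.9% in the SP600125 libraries and its log2 fold changes followed GC content more closely (Spearman's rho 0.24 over 13162 genes) than those against NT (0.12). Read counts in genes were 20806421 and 24917854 in NT and 23328567 and 16782262 in SR11302. The SR11302 libraries also differed from each other with the GC content of the exons (Spearman's rho -0.58 between the log2 ratio of replicate 1 to replicate 2 and GC over 13162 genes). For the NT libraries the same rho was -0.30. NT replicate 2 held reads of genes abundant in A549, at 0.599% of their summed A549 level over 23 such genes, against 0.0410% in NT replicate 1 and 0.0222 to 0.0229% in SR11302. Genes that differed at least 4-fold between the NT libraries were 17 of the 1814 lower and 1 of the 1863 higher calls.

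**Figure D1:**
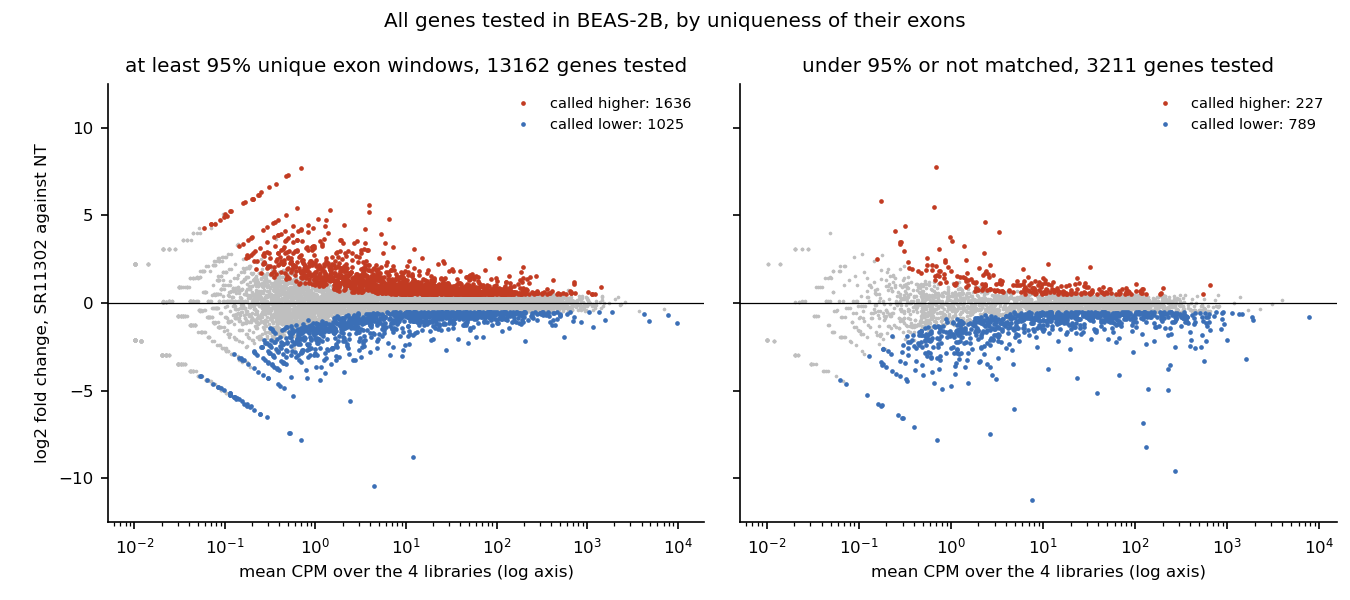
Log2 fold change of SR11302 against NT in BEAS-2B (vertical axis) against the mean CPM over the 4 libraries (horizontal log axis), each point a gene, red called higher and blue called lower. Calls made over all genes number 1636 higher and 1025 lower among the 13162 genes with at least 95% unique exon windows (left panel), and 227 higher and 789 lower among the remaining 3211 genes (right panel).

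Markers of the labelled cell type were mixed, with a simple keratin high and the epithelial cadherin low. Vimentin (VIM) stood at 1526 and 1581 CPM in NT and 1518 and 1539 CPM in SR11302, where CPM are read counts per gene set to a common library size by TMM. The simple epithelial keratin KRT7 stood at 902 and 998 CPM in NT and 841 and 956 CPM in SR11302, while the epithelial cadherin CDH1 lay at 0.575 and 1.79 CPM in NT and 2.01 and 2.31 CPM in SR11302. KRT7 was thus high in all 4 libraries and CDH1 low, and the epithelial regulator GRHL2 had no count in any of them. In bulk RNA a change in the number of cells of a type and a change in RNA per cell cannot be told apart. Of 20 tested epithelial genes 2 rose and 6 fell (2 and 2 of 17 over unique genes), of 14 mesenchymal genes 0 rose (2 at an unadjusted p under 0.05, 0 by DESeq2) and 3 fell, and of 7 tested basal cell genes 0 rose (0 at an unadjusted p under 0.05, 0 by DESeq2) and 1 fell. Over all genes 11.4% rose and 11.1% fell. The 11 listed basal cell genes summed to 394 and 424 CPM in NT and 247 and 302 CPM in SR11302, though their regulator TP63 was at or near 0. Of 15 listed markers of other cell types 5 were at 0 in all 4 libraries. Among these were CD3E and LYZ of leukocytes, SCGB3A1 of club cells and HBB of erythrocytes. The others, with PTPRC of leukocytes and SCGB1A1 of club cells among them, had reads in at least 1 library. Of 7 tested markers of other cell types, 2 rose and 2 fell (1 and 0 of 4 over unique genes). The rises were those of the lysosomal protein CD68, from 11.3 and 11.5 to 18.3 and 19.3 CPM (0.72 ± 0.17, the log2 fold change ± SE as in all such values), and of VWF, an endothelial protein, from 0.718 and 0.733 to 2.22 and 1.8 CPM (1.47 ± 0.34), while the endothelial marker PECAM1 was at 0 in all 4. The falls were those of the mucins MUC5AC (0.0958 and 3.79 to 0.0411 and 0.113 CPM) and MUC5B (0.575 and 4.68 to 0.0822 and 0.394 CPM), both read mainly in NT replicate 2 and not called without it. Without NT replicate 2 the epithelial genes that fell numbered 1, without SR11302 replicate 1 they numbered 2 and without SR11302 replicate 2 they numbered 3.

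Promoter sequences of 2 gene groups that moved together are shown before their values, since both carry short motifs with known readers. They come from the RefSeq table of the reference, build GRCh38.p14, each 250 bases before to 50 bases after a start and read 5′ to 3′ on the gene's own strand. Of the genes tested, 12552 were matched to the table (76.7%), 902 of them through a synonym. Capitals mark every match on either strand. In HMGCS1 (minus strand) they mark CCAAT, read by NF-Y, a factor that works beside SREBP. In SREBF2 (plus strand) they mark TCACNCCAC, a form of the sterol regulatory element. In IFIH1 (minus strand) and HERC5 (plus strand) they mark a pair of TTTC with any 2 bases between, the core of the interferon-stimulated response element, whose matches can overlap one another.
HMGCS1, chr5:43313363-43313662: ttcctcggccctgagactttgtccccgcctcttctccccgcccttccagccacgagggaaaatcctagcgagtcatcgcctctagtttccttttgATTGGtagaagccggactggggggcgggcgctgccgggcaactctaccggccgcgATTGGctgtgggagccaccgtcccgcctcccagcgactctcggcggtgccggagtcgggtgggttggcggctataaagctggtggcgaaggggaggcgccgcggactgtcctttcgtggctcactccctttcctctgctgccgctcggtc
SREBF2, chr22:41832855-41833154: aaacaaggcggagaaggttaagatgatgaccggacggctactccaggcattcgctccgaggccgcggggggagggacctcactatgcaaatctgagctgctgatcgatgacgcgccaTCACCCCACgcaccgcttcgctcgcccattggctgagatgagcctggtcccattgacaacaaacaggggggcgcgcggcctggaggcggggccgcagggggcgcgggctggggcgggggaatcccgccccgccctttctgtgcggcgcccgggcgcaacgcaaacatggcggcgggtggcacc
IFIH1, chr2:162318635-162318934: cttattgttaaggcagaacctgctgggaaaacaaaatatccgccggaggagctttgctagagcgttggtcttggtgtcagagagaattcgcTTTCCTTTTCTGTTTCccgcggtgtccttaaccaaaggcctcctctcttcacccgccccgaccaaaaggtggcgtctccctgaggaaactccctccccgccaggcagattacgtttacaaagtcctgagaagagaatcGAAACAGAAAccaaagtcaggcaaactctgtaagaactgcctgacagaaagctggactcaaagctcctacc
HERC5, chr4:88456869-88457168: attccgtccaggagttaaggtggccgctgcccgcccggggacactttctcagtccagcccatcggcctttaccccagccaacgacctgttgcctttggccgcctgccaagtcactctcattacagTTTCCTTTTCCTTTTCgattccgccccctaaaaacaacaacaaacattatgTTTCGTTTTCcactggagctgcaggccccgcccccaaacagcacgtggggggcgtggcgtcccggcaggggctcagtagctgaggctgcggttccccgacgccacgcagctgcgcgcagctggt

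The interferon element was found in 27 of the 41 interferon-stimulated genes in the table (65.9%), 16 of the 21 that were called higher and 11 of the 20 that were not called. It was in 502 of the 12552 tested genes in the table and in 3.57% of all its 35116 windows. CCAAT was found in 13 of the 15 cholesterol synthesis genes in the table, against 42.5% of the 12552 tested genes and 34.6% of all windows, and TCACNCCAC in 0 of these 15, against 1.42% of the tested genes and 1.13% of all windows. Among 12 SREBP pathway and sterol uptake genes in the table TCACNCCAC was in 1, the SREBF2 shown. Only this form of the sterol element was searched, so the counts say nothing about its other forms. Since the table holds 15 of the 20 cholesterol genes tested, under 80%, a comparison of these shares is void and the counts describe these windows alone. A direct repeat of AGGTCA with 5 bases between, the classic retinoic acid response element, was searched as this exact string. It was in 0 of 24 retinoid genes in the table, in 0 of the 12552 tested genes and in 2 windows of all. The count therefore says nothing about the retinoid genes. The AP-1 site TGANTCA was in 7.71% of all windows, and since fewer than 80% of the called genes are in the table, its share among them is not given.

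Enzymes of cholesterol synthesis rose along the length of the pathway. Of 20 tested enzymes 15 were higher, 0 were lower and 5 were not called by edgeR's quasi-likelihood test, with a median log2 fold change of 0.78 beside 0.01 for all genes. At an unadjusted p under 0.05 and no fold minimum 0 were lower, and DESeq2 called 15 higher and 0 lower. Over unique genes 14 of 17 were higher. HMGCS1, the cytosolic HMG-CoA synthase (chromosome 5, 43287470 to 43313512, minus strand of hg38), stood at 74.6 and 77.6 CPM in NT and 348 and 277 CPM in SR11302. It was 4.11-fold higher, at 2.04 ± 0.13 on the log2 scale (SE, 2 libraries per group, adjusted p = 1.78e-07), and was the largest rise of the list. Both SR11302 libraries lay above both NT libraries.

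Further along the pathway, the kinase MVK rose from 14.2 and 15.6 to 30.6 and 31.8 CPM (1.07 ± 0.15, adjusted p = 0.000157). The decarboxylase MVD rose by 1.14 ± 0.19 and the isomerase IDI1 by 0.81 ± 0.16. PMVK, the kinase between MVK and MVD, stood at 25.3 and 26.1 CPM in NT and 20.2 and 22 CPM in SR11302 and was not called (adjusted p = 0.164). FDFT1, the squalene synthase that commits carbon to sterols, went from 107 and 109 to 290.4 and 282 CPM (1.4 ± 0.10, adjusted p = 8.4e-07). The next enzymes, the epoxidase SQLE and the cyclase LSS, rose by 0.75 ± 0.12 and 0.55 ± 0.12. Of the late enzymes, the sterol isomerase EBP went from 53.1 and 57.6 to 92.1 and 105 CPM (0.83 ± 0.13), and DHCR7, which makes cholesterol from its last precursor, from 46.1 and 53.4 to 123 and 129 CPM (1.34 ± 0.13, adjusted p = 7.15e-06). The demethylase CYP51A1 (0.10), the dehydrogenase NSDHL (0.33), HSD17B7 (-0.08) and the desaturase SC5D (0.05) were not called. Leaving out 1 library ended the call of LSS (0.46 without SR11302 replicate 2, 0.51 without NT replicate 1) and of the methyl sterol oxidase MSMO1 (0.85, 0.58 without SR11302 replicate 1, 0.79 without NT replicate 2).

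**Figure D2:**
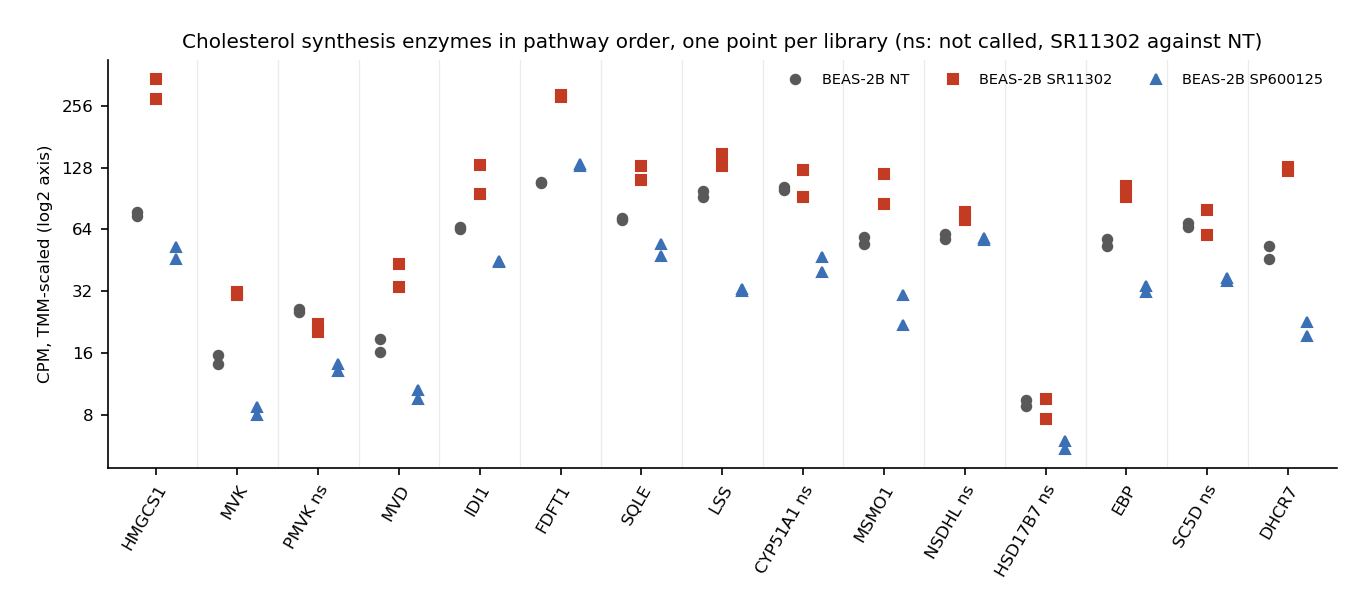
CPM (vertical log2 axis) of 15 cholesterol synthesis enzymes, those described in the text, in pathway order, with 2 points per group for NT (grey), SR11302 (red) and SP600125 (blue) in BEAS-2B. For 10 of them SR11302 was called higher than NT, with HMGCS1 at 348 and 277 against 74.6 and 77.6 CPM, while its SP600125 points, at 45.7 and 52.8 CPM, lie below both.

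A part of the regulators rose with the enzymes. SREBF2, the SREBP that drives cholesterol genes, rose from 139.8 and 145 to 247 and 262 CPM (0.84 ± 0.10, adjusted p = 4.53e-05), while SREBF1, which favours fatty acid genes, stood at 49.1 and 53.2 CPM in NT and 44.1 and 55.8 CPM in SR11302 (-0.04 ± 0.13). INSIG1, itself a target of the pathway, rose from 42.1 and 43.6 to 86.4 and 69 CPM (0.86 ± 0.16). The endosomal cholesterol carrier NPC2 rose by 1.11 ± 0.13, and the list of SREBP pathway and sterol uptake genes had 6 of 15 tested that rose, while 0 fell (0 at an unadjusted p under 0.05, 0 by DESeq2), with a median of 0.47.

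Fatty acid genes moved in part. Of 32 tested, 12 were higher and 2 lower (11 and 1 of 28 over unique genes). Among all genes 11.4% were higher and 11.1% lower. The delta-6 desaturase FADS2 rose from 122 and 126 to 337 and 343 CPM (1.46 ± 0.10, adjusted p = 4.81e-07), and its neighbour FADS1, the delta-5 desaturase, from 137 and 139.6 to 250.2 and 235 CPM (0.81 ± 0.10). ACSS2, which makes acetyl-CoA from acetate, rose by 1.06 ± 0.11. FASN, the fatty acid synthase itself, was not called (adjusted p = 1), at 519 and 560.2 CPM in NT and 497 and 580.2 CPM in SR11302. On the efflux side ABCA1, the exporter of cholesterol to apolipoproteins and a classic target of the sterol sensor LXR, fell from 8.96 and 7.37 to 1.52 and 1.13 CPM (-2.59 ± 0.21, adjusted p = 2.61e-06). Of 13 tested LXR targets and sterol efflux genes 3 fell and 0 rose (4 at an unadjusted p under 0.05, 0 by DESeq2). The median of this list was -0.04, and over unique genes 2 of 11 fell. Beside ABCA1 the called members were SOAT1, the enzyme that esterifies cholesterol for storage (-0.77 ± 0.15), and APOE (-0.80 ± 0.19). The call of APOE was lost without NT replicate 2 (-0.73) or SR11302 replicate 2 (-0.73).

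Of the 7 AP-1 subunits themselves 1 was called higher and 1 lower in BEAS-2B, a share close to the 22.5% called over all genes. At an unadjusted p under 0.05 and no fold minimum 3 were higher and 4 lower. FOSB, an immediate early subunit, fell from 3.35 and 4.11 to 1.64 and 1.8 CPM (-1.13 ± 0.22, adjusted p = 0.00187). JUND, another Jun protein, went from 89.1 and 107 to 136 and 147 CPM (0.53 ± 0.12, adjusted p = 0.00482), and was not called without NT replicate 1 (0.41) or without SR11302 replicate 2 (0.48). JUN stood at 240.4 and 245 CPM in NT and 178 and 177 CPM in SR11302 (-0.45 ± 0.12) and FOSL2 at 206 and 209 CPM in NT and 154 and 154 CPM in SR11302 (-0.43 ± 0.10). Both SR11302 values lay below both NT values for these genes, with adjusted p of 0.0115 and 0.00582, but the change was under the fold minimum. FOS (0.57 ± 0.24), JUNB (0.35 ± 0.16) and FOSL1 (-0.60 ± 0.25) did not reach an adjusted p under 0.05.

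Genes known to respond to AP-1 gave 1 higher and 5 lower of 20 tested, with a median of -0.38, and without NT replicate 2 the lower ones numbered 3. The lower ones included the hyaluronan receptor CD44, from 638 and 628 to 389 and 359.9 CPM (-0.76 ± 0.14), the urokinase receptor PLAUR (-0.70 ± 0.15) and the cytokine IL11, from 74.6 and 82.6 to 34.2 and 27.5 CPM (-1.35 ± 0.18, adjusted p = 0.000133). The higher one was HMOX1, the heme oxygenase (0.72 ± 0.14). Beside these counts, 11.4% of all genes were higher and 11.1% lower. The metalloproteinases MMP1 and MMP9 were read at under 1 CPM in all 4 libraries. Of 21 other bZIP factors CEBPB (-0.80 ± 0.12) and ATF3 (-0.75 ± 0.15) fell and CEBPD rose (1.07 ± 0.16), a share below the 22.5% called over all genes.

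A part of the collagen chains fell, with the main chains of the basement membrane among them. Of 31 tested chains 12 were lower, 2 higher and 17 not called, with a median of -0.46. Among all genes 11.1% were lower and 11.4% higher. All 31 are unique genes, and with p-values adjusted over unique genes 11 were lower. COL4A1 (chromosome 13, 110148963 to 110307157, minus strand of hg38), a chain of the main type IV network, fell from 870.2 and 888 to 244 and 216 CPM (-1.93 ± 0.13, adjusted p = 3.41e-07). COL4A2, which lies head to head with it with 127 bases between the 2 RefSeq starts on chromosome 13, fell from 1137 and 1166 to 546 and 553 CPM (-1.07 ± 0.12, adjusted p = 3.71e-05). The other type IV chains tested were not called: COL4A3 (0.33), COL4A4 (-0.37), COL4A5 (-0.26) and COL4A6 (-0.20).

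Beyond the basement membrane, all 3 tested chains of the beaded filament collagen VI fell: COL6A1 (-0.79 ± 0.12), COL6A2 (-1.34 ± 0.16) and COL6A3 (-2.55 ± 0.43, at under 3 CPM). COL7A1, which forms the fibrils that anchor epithelium to stroma, fell from 165 and 180.4 to 48.6 and 66.5 CPM (-1.59 ± 0.14). COL5A3 fell from 10.9 and 10.4 to 2.26 and 2.08 CPM (-2.28 ± 0.19) and COL27A1 from 16.7 and 15.4 to 2.63 and 2.37 CPM (-2.67 ± 0.18), while COL1A1, the most abundant fibrillar chain in many tissues, stood at 4296 and 4391 CPM in NT and 3031 and 3267 CPM in SR11302 and was not called (-0.46 ± 0.27, adjusted p = 0.208). COL12A1, which decorates fibrils, rose from 444 and 428 to 1088 and 938 CPM (1.22 ± 0.12, adjusted p = 9.09e-06), as did COL8A2 (1.05 ± 0.21). Leaving out 1 library ended the call of COL13A1, whichever of the 4 it was (-0.52 to -0.72), and that of COL11A1 without NT replicate 2 (-0.90).

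Of 19 tested enzymes and chaperones that modify collagen, 7 fell and 2 rose, beside 11.1% lower and 11.4% higher over all genes. The prolyl hydroxylase subunits P4HA1 and P4HA2 fell (-0.72 ± 0.15 and -0.95 ± 0.11), and the lysyl hydroxylase PLOD2 from 566 and 547 to 323 and 255 CPM (-0.95 ± 0.18, adjusted p = 0.00152). LOXL2, a lysyl oxidase that crosslinks collagen IV, rose from 796 and 814 to 1242 and 1255 CPM (0.63 ± 0.10, adjusted p = 0.000624).

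Glycoproteins of the matrix moved in both directions, where 11.4% of all genes were higher and 11.1% lower. Of 34 tested, 7 were higher and 8 lower, with a median of -0.04. The higher ones numbered 3 without NT replicate 1, 2 without NT replicate 2 and 2 without SR11302 replicate 2. FN1, fibronectin, fell from 13613 and 13786 to 6354 and 5928 CPM (-1.16 ± 0.21, adjusted p = 0.00118). The TGF-beta-induced protein TGFBI fell from 1649.8 and 1724 to 638 and 645 CPM (-1.4 ± 0.10, adjusted p = 8.08e-07), and POSTN, periostin, from 343 and 339.7 to 87.7 and 63.4 CPM (-2.17 ± 0.26), a call that DESeq2 did not make. The proteoglycans BGN (-1.44 ± 0.14) and VCAN (-0.91 ± 0.18) and the thrombospondin THBS1 (-0.98 ± 0.13) were lower as well. Among the rises, FBLN5, an elastic fibre protein, went from 0.623 and 0.0814 to 3.62 and 3.66 CPM (3.42 ± 0.58), with NT libraries that differed from each other.

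**Figure D3:**
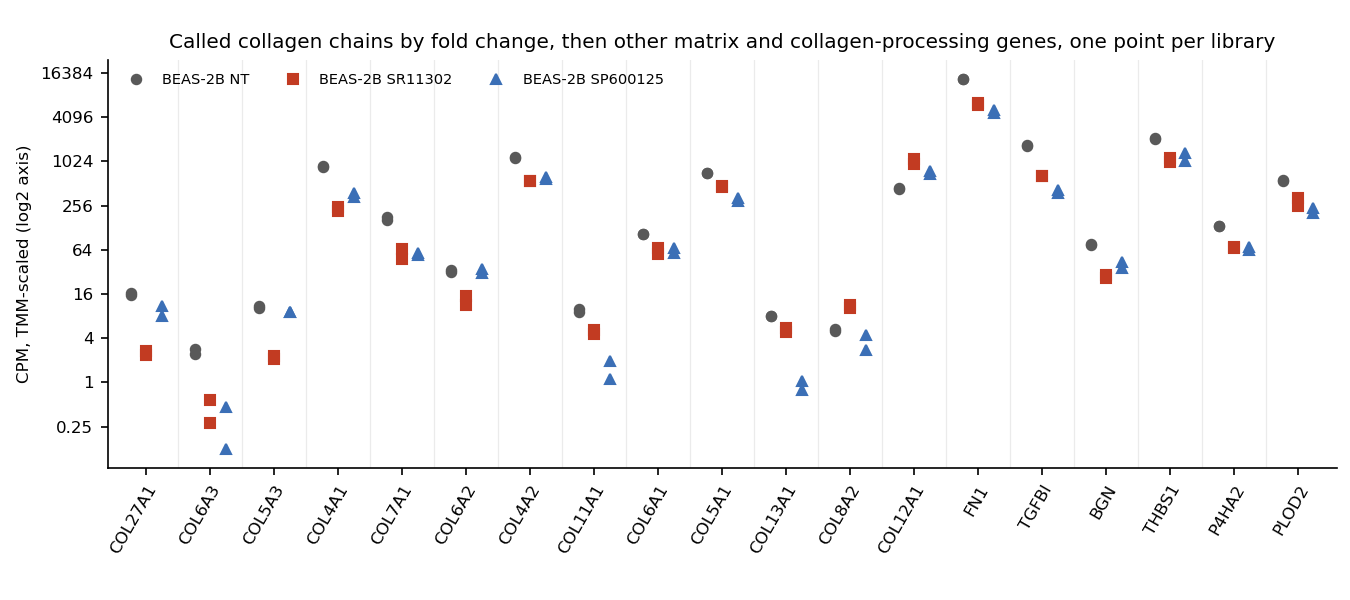
CPM (vertical log2 axis) of 13 called collagen chains described in the text, ordered by fold change, and of 6 further matrix and collagen-processing genes, with 2 points per group in BEAS-2B. The SR11302 points (red) lie below the NT points (grey) for the 11 of these chains called lower, COL4A1 at 244 and 216 against 870.2 and 888 CPM, and above them for COL8A2 and COL12A1.

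Laminins, which build the other network of the basement membrane, and the integrins that bind them split, with 5 higher and 6 lower of 29 tested. Among all genes 11.4% were higher and 11.1% lower. LAMA4, a laminin alpha chain, rose from 4.41 and 4.23 to 28.7 and 23 CPM (2.58 ± 0.25, adjusted p = 9.3e-06). ITGB4, the integrin subunit of hemidesmosomes, rose from 50.0 and 52.9 to 87.7 and 102 CPM (0.88 ± 0.11), and the collagen-binding ITGA11 fell (-1.63 ± 0.30). Of 28 proteases and inhibitors, 4 rose (2 without either NT library) and 6 fell. The metalloproteinase inhibitor TIMP3 rose from 6.9 and 8.92 to 40.7 and 34.9 CPM (2.25 ± 0.19, adjusted p = 2.82e-06) and the sheddase ADAM19 fell from 108 and 112 to 63.1 and 61.4 CPM (-0.82 ± 0.15).

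Among TGF-beta family genes 5 of 29 fell and 0 rose, with a median of -0.38, beside 11.1% lower and 11.4% higher over all genes. At an unadjusted p under 0.05 13 were lower and 2 higher, and DESeq2 called 6 lower and 0 higher. The ligand TGFB2 fell from 264 and 264 to 139 and 112 CPM (-1.07 ± 0.16, adjusted p = 0.00036), and the activin subunits INHBA and INHBB fell (-2.36 ± 0.31 and -1.04 ± 0.14). The inhibitory SMAD7 was called lower at -0.51 ± 0.16, but without any one of the 4 libraries the call was lost (-0.42 to -0.59). Targets of the factor SRF and actin cytoskeleton genes were read as 1 list of 20. Of these 8 fell and 0 rose (1 at an unadjusted p under 0.05, 0 by DESeq2). Over unique genes 5 of 15 fell. The gamma smooth muscle actin ACTG2 fell from 16 and 16.2 to 1.85 and 2.2 CPM (-3.00 ± 0.24, adjusted p = 2.23e-06), and tropomyosin TPM1 from 905 and 931 to 547 and 515 CPM (-0.79 ± 0.11). TAGLN, transgelin, fell (-1.51 ± 0.23), with only 79.8% of its windows unique. Among mesenchymal regulators SNAI2 fell (-1.67 ± 0.22), while TWIST1 (-0.14), ZEB1 (-0.30) and ZEB2 (-0.23) were not called. Of 22 YAP targets 2 rose and 5 fell, the largest fall being that of ANKRD1 (-1.05 ± 0.18).

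Of 22 tested NF-κB pathway genes 0 rose (3 at an unadjusted p under 0.05, 0 by DESeq2) and 4 fell, with a median of 0.04, beside 11.4% higher and 11.1% lower over all genes. BIRC3, an inhibitor of apoptosis, fell from 7.85 and 7.9 to 1.69 and 1.8 CPM (-2.18 ± 0.18, adjusted p = 2.64e-06), and TNFAIP3, the brake A20, from 8.72 and 7.17 to 3.25 and 3.15 CPM (-1.3 ± 0.18, adjusted p = 0.000148). NFKBIA, the inhibitor that NF-κB induces at once, stood at 23.5 and 27 CPM in NT and 26.6 and 24.9 CPM in SR11302 (0.03 ± 0.11). Of 27 tested cytokine genes 4 rose and 7 fell, 4 of them without NT replicate 2 or without SR11302 replicate 2. CCL2, the monocyte chemokine, rose from 12.7 and 13.6 to 52.7 and 49.7 CPM (1.96 ± 0.19, adjusted p = 7.64e-06) and CXCL16 from 2.92 and 3.62 to 10.5 and 9.13 CPM (1.58 ± 0.19). IL1A fell from 2.35 and 2.32 to 0.411 and 0.338 CPM (-2.6 ± 0.38). The called fall of CXCL8 (-1.66 ± 0.57), the neutrophil chemokine, was lost without NT replicate 1 (-1.74), NT replicate 2 (-1.56) or SR11302 replicate 2 (-1.19).

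A part of the interferon-stimulated genes rose. Of 51 tested, 23 were higher, 0 lower and 28 not called by edgeR's test, with a median of 0.56. At an unadjusted p under 0.05 31 were higher and 0 lower, and DESeq2 called 22 higher and 0 lower. Over unique genes 19 of 42 were higher, and without NT replicate 1 the number of higher genes was 15. IFIH1, the sensor of long double-stranded RNA, rose from 1.48 and 1.34 to 7.15 and 5.46 CPM (2.17 ± 0.31, adjusted p = 0.000223). The ISG15 ligase HERC5 rose from 3.16 and 2.81 to 9.66 and 7.1 CPM (1.5 ± 0.19) and UBE2L6, the ISG15 conjugating enzyme, from 11.9 and 14.4 to 35 and 37.1 CPM (1.45 ± 0.14, adjusted p = 8.9e-06). The immunoproteasome subunit PSMB8 rose from 24.2 and 26.3 to 51.6 and 58 CPM (1.12 ± 0.13). All 4 were above the NT range in both SR11302 libraries.

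Several classic members of the list did not pass the test. ISG15 itself was not called (0.27 ± 0.21), nor were the interferon signalling factors STAT2 (0.23 ± 0.11) and IRF9 (0.22 ± 0.14), and RSAD2 had no count in any of the 4 libraries. The list also held 21 higher and 2 lower genes in BEAS-2B with SP600125 against the same NT libraries, where 43.8% of all genes were called, and SR11302 against SP600125 gave 9 higher and 6 lower. In A549 with SR11302 it held 32 higher and 4 lower genes, with a median of 0.83, where 14.8% of all genes were higher and 13% lower. The response was called higher in BEAS-2B than in A549 for 4 members and lower for 8.

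**Figure D4:**
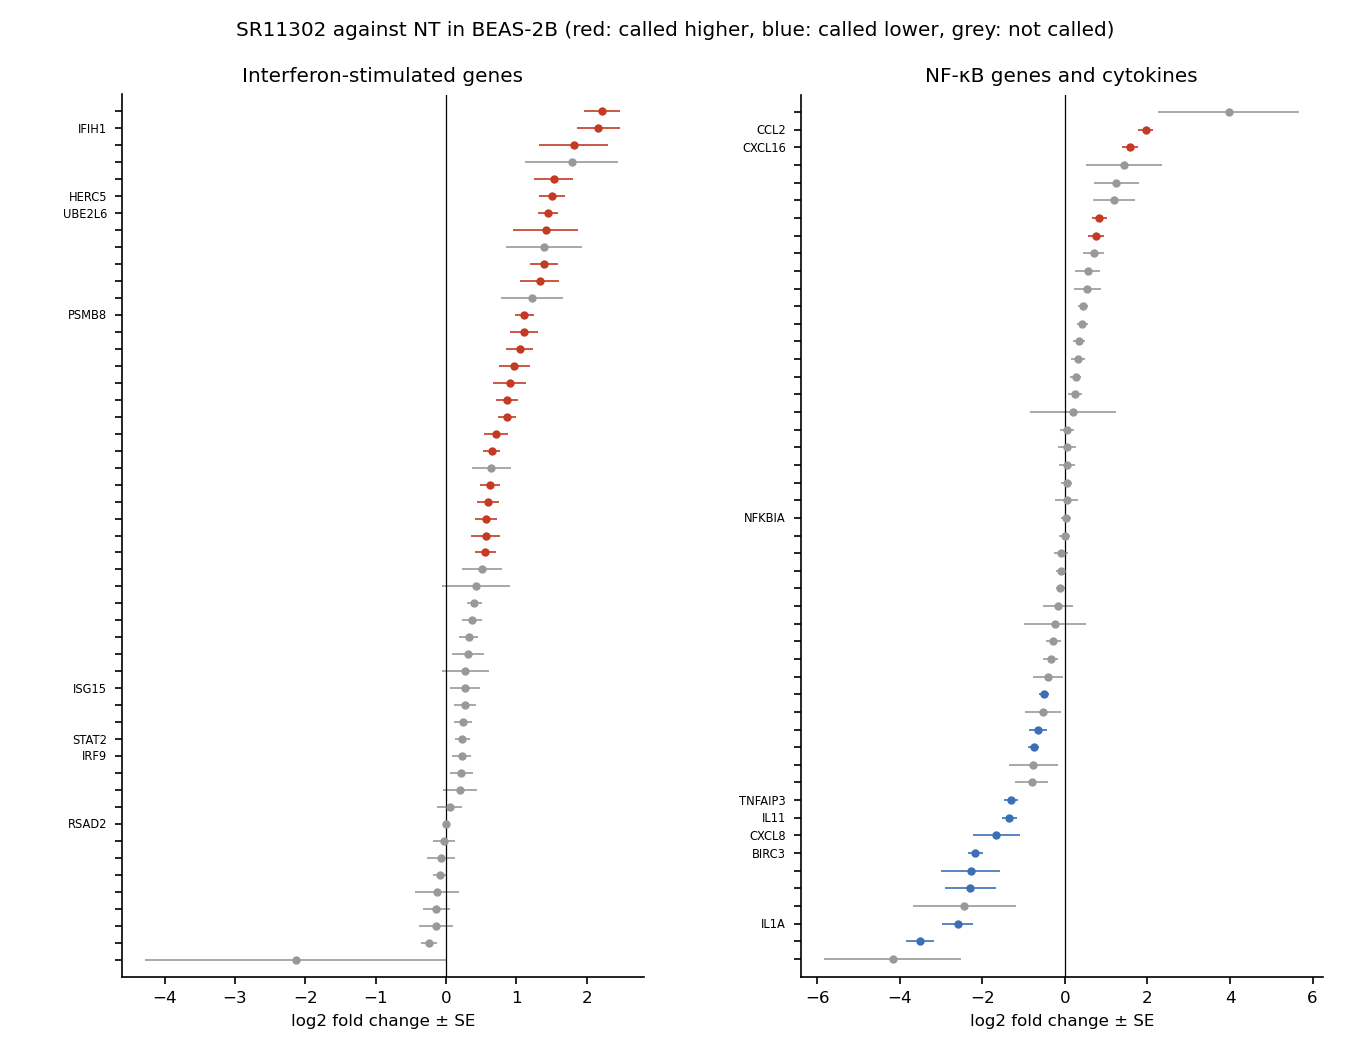
Log2 fold change of SR11302 against NT in BEAS-2B with SE bars (horizontal axis) for the 51 tested interferon-stimulated genes (left) and for NF-κB genes and cytokines (right), ordered by value, with the genes described in the text named. On the left 23 points are called higher and none lower, and on the right calls lie at both ends, CCL2 at 1.96 and IL1A at -2.6.

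SR11302 is a synthetic retinoid, so retinoid receptors and genes known to respond to retinoic acid were read too. Of 29 tested 7 rose and 3 fell (5 and 3 by DESeq2), with a median of 0.00. Among all genes 11.4% were higher and 11.1% lower. RARG, the retinoic acid receptor gamma, rose from 45.5 and 48 to 92.1 and 95.7 CPM (1.01 ± 0.12, adjusted p = 5.58e-05), and TGM2, the tissue transglutaminase, from 5.84 and 8.31 to 21.6 and 20.6 CPM (1.57 ± 0.17, adjusted p = 2.23e-05). DHRS3, which reduces retinal, rose by 1.22 ± 0.15 and CYP26B1, which degrades retinoic acid, by 0.86 ± 0.17. RARB, the classic direct target, stood at 4.31 and 5.37 CPM in NT and 4.6 and 3.15 CPM in SR11302 and was not called (-0.30 ± 0.21). The retinol receptor STRA6 fell (-1.81 ± 0.37), as did ALDH1A3, which makes retinoic acid, from 73.5 and 74.2 to 42.3 and 36.6 CPM (-0.90 ± 0.11).

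Proliferation genes were read next. Of 47 DNA replication genes 2 rose and 4 fell, with a median of 0.11, and over 39 unique genes 1 fell. Of 40 mitotic genes 3 rose and 1 fell, with a median of 0.25, beside the 22.5% called over all genes. At an unadjusted p under 0.05 and no fold minimum 15 mitotic genes were higher and 1 lower. Of the 40, 36 had a log2 fold change above 0, as did 8336 of the 16373 genes tested. Among 27 p53 targets 0 rose (2 at an unadjusted p under 0.05, 0 by DESeq2) and 2 fell (1 of 23 over unique genes), with a median of -0.09. MDM2, which p53 induces and which degrades it, fell from 255 and 243 to 150.1 and 118 CPM (-0.89 ± 0.17, adjusted p = 0.00141), and CDKN1A, the cell cycle inhibitor p21, stood at 90.8 and 101 CPM in NT and 75.4 and 76.6 CPM in SR11302 (-0.34 ± 0.10, under the fold minimum). The fall of GDF15 (-0.56 ± 0.18) was not called without NT replicate 2 (-0.35), SR11302 replicate 1 (-0.62) or SR11302 replicate 2 (-0.52).

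The largest rise among unique genes at 10 CPM or more was that of SESN3. SESN3, a stress sensor that restrains mTORC1, went from 0.383 and 0.489 to 14.4 and 10.5 CPM, 28.1-fold higher (4.81 ± 0.50, adjusted p = 1.76e-05), in a list of FOXO and nutrient response genes with 6 higher and 5 lower (3 without SR11302 replicate 2) of 22 tested. ERBB3, the receptor of neuregulins, rose from 12.7 and 13.9 to 45.5 and 47.2 CPM (1.8 ± 0.12, adjusted p = 2.95e-07), while the insulin receptor substrate IRS1 fell from 136 and 142 to 88.1 and 80.7 CPM (-0.72 ± 0.10). TXNIP, which rises with glucose, fell from 129 and 125 to 68.5 and 65.3 CPM (-0.92 ± 0.23), a call lost without NT replicate 1 (-0.90) or SR11302 replicate 2 (-0.88) and by DESeq2. IGFBP5 rose from 29.4 and 31.2 to 206 and 155 CPM (2.57 ± 0.16, adjusted p = 1.6e-07) and IGFBP4 fell (-0.70 ± 0.12), both of them carriers of insulin-like growth factors. That list of 10 tested genes held 2 higher and 2 lower. Both lists stand beside 22.5% called over all genes.

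Of 37 growth factor and MAPK feedback genes 5 rose and 4 fell (2 without NT replicate 2 or SR11302 replicate 2), a share close to the 22.5% called over all genes. Among those that fell was the phosphatase DUSP4, from 206 and 212 to 103 and 99 CPM (-1.05 ± 0.11). NRF2 targets gave 6 higher and 6 lower (3 without NT replicate 2) of 24 tested, and over 18 unique genes 5 higher and 1 lower. NQO1, the quinone reductase, rose from 96.9 and 109 to 253 and 259 CPM (1.31 ± 0.13, adjusted p = 1.06e-05) and the thioredoxin reductase TXNRD1 by 1.07 ± 0.13. Among the lower ones AKR1B10, with 0.192 and 30.4 CPM in NT and 0 and 0 in SR11302, and AKR1C2, with 0.144 and 18.9 CPM in NT and 0.164 and 0.113 CPM in SR11302, were read mainly in NT replicate 2, as were AKR1C1 and AKR1C3, a family whose members share sequence (62 to 94.2% unique windows in the 3 AKR1C genes). Hypoxia and glycolysis genes gave 2 higher and 6 lower of 26 tested (2 and 2 over 20 unique genes), and aryl hydrocarbon receptor genes 3 higher and 2 lower of 8. Genes of the integrated stress and unfolded protein responses gave 2 higher and 4 lower of 26, again close to the share over all genes. Of the last, the asparagine synthetase ASNS fell from 39.8 and 42.1 to 19.1 and 18.1 CPM (-1.14 ± 0.26) and the amino acid transporter SLC7A5 rose from 969 and 1034 to 1787 and 1949.9 CPM (0.90 ± 0.17).

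The 12 largest rises among genes with at least 10 CPM and unique exons were, in order, SESN3, GYG2, RTN1, PADI2, LAMA4, IGFBP5, RASGRF1, ADIRF, C1orf115, FRAS1, TIMP3 and DLX4. PADI2, an enzyme that turns arginine into citrulline, rose from 2.54 and 2.52 to 22.2 and 21.4 CPM (3.11 ± 0.15, adjusted p = 1.73e-08). GYG2, the liver form of the primer of glycogen, rose from 0.958 and 0.977 to 11 and 10.3 CPM (3.45 ± 0.21). FRAS1, a basement membrane protein, rose from 8.81 and 8.96 to 47.5 and 39.5 CPM (2.29 ± 0.18). The other rises ran from 2.1 for the homeobox gene DLX4 to 3.22 for RTN1, a reticulon of the endoplasmic reticulum. The 12 largest falls were ACTG2, HMGA2, RGS4, COL27A1, CEP295NL, PTX3, SPON1, JAG1, COL5A3, POSTN, ZNF460 and SOX9. HMGA2, an architectural DNA-binding protein of embryonic and tumour cells, fell from 12.2 and 11.6 to 1.19 and 1.97 CPM (-2.94 ± 0.22, adjusted p = 1.29e-06). JAG1, a ligand of Notch, fell from 77 and 84.7 to 17.9 and 15 CPM (-2.29 ± 0.12, adjusted p = 3.07e-08), and the factor SOX9 from 60.4 and 60.2 to 15.5 and 12.9 CPM (-2.08 ± 0.18). RGS4, which shuts off G protein signals, fell from 48.9 and 46.5 to 7.81 and 6.76 CPM (-2.7 ± 0.21), and the secreted pattern recognition protein PTX3 from 17.6 and 15.5 to 3.54 and 2.76 CPM (-2.38 ± 0.21).

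Whether BEAS-2B responded otherwise than A549 was tested with the interaction of treatment and line, the log2 fold change in BEAS-2B minus that in A549. It called 2579 of 16373 genes (15.8%), with 1213 higher (7.41%) and 1366 lower (8.34%) in BEAS-2B. Leaving out 1 library moved these counts to between 587 and 2336 higher and between 744 and 2432 lower. The lowest of them came without BEAS-2B NT replicate 1 (587 higher) and A549 NT replicate 1 (631 higher, 744 lower), and the highest without A549 SR11302 replicate 1. Without BEAS-2B NT replicate 2 they were 717 and 856, and without BEAS-2B SR11302 replicate 2 they were 734 and 883.

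Most AP-1 subunits responded differently in the lines. FOS fell in A549 from 323 and 311 to 50.8 and 83.9 CPM (-2.23 ± 0.21) and stood at 7.85 and 8.92 CPM untreated and 13.1 and 11.7 CPM treated in BEAS-2B, a difference between the lines of 2.8 ± 0.31 (adjusted p = 4.97e-05). For JUND the difference was 1.28 ± 0.17 and for JUNB 1.32 ± 0.21, and 5 of 7 subunits were called in this direction, FOSB (3.66 ± 0.28) and FOSL1 (1.26 ± 0.35) being the others. A549 itself had 7 of 7 subunits lower, where 13% of all genes were called lower and 14.8% higher.

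Of 27 p53 targets 19 responded lower in BEAS-2B, and A549 had 24 of them higher. CDKN1A went from 117 and 109.6 to 369.7 and 319 CPM in A549 (1.6 ± 0.11), with a difference of -1.94 ± 0.15 (adjusted p = 2.83e-06), and MDM2 differed by -1.74 ± 0.23. Of 47 replication genes 24 responded higher in BEAS-2B, where 4 fell, than in A549, where 24 fell, and of 40 mitotic genes 12 did. Cholesterol enzymes gave 7 higher differences of 20, with HMGCS1 at 287 and 314 CPM untreated and 301 and 273 CPM treated in A549 (-0.07 ± 0.12) and a difference of 2.11 ± 0.17 (adjusted p = 4.3e-06). Of the collagen chains 15 of 31 responded lower in BEAS-2B and 1 higher, including COL4A1 (0.95 ± 0.13 in A549, difference -2.88 ± 0.18), COL4A2 (difference -1.74 ± 0.17) and COL5A1 (2.1 ± 0.11 in A549, difference -2.73 ± 0.15). FN1 differed by -2.47 ± 0.30 (adjusted p = 9.2e-05), ABCA1 by -3.78 ± 0.29, TXNIP by -2.62 ± 0.60 and FADS2 by 1.81 ± 0.14.

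**Figure D5:**
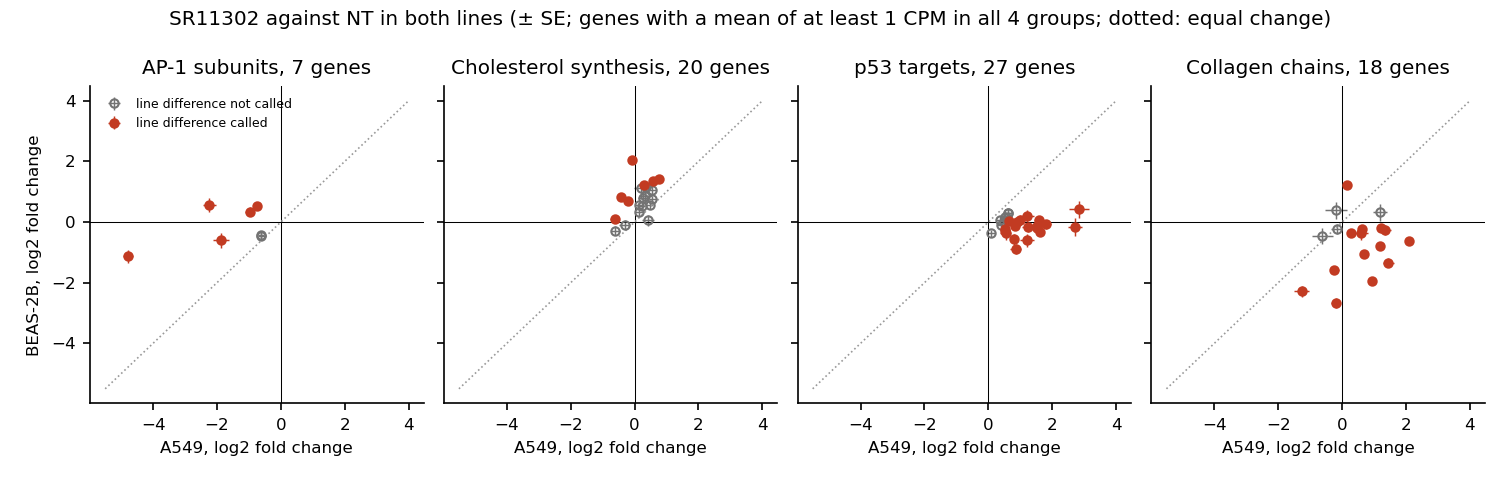
Log2 fold change of SR11302 against NT in BEAS-2B (vertical axis) against that in A549 (horizontal axis), with SE bars, for those members of 4 lists whose mean reached 1 CPM in all 4 groups, and filled points where the difference between the lines was called. AP-1 subunits lie left of the dotted line of equal change (FOS at 0.57 and -2.23) and p53 targets lie right of it (CDKN1A at -0.34 and 1.6).

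Among the largest called differences toward BEAS-2B were those in CDKN2A, NPY1R, DMKN, FOSB and NR4A1, and the largest toward A549 in RGS4, TLR4, MYEOV, FAM196B, NEFL and LGSN. CDKN2A, a cell cycle inhibitor known to be deleted in A549, had reads in 1 of the 4 untreated and SR11302-treated A549 libraries and stood at 207 and 241 CPM in NT and 267 and 308 CPM in SR11302 in BEAS-2B, so the difference of 6.36 ± 1.87 depends on the treatment of zeros. The same holds for RGS4, with no reads in untreated A549, for TLR4 and FAM196B, with reads in 1 of 2 untreated A549 libraries, and for MYEOV, NEFL and LGSN, with none in BEAS-2B with SR11302. NR4A1, an immediate early nuclear receptor, fell in A549 from 359.8 and 308 to 42.9 and 48.9 CPM (-2.86 ± 0.15) and differed by 3.46 ± 0.22 (adjusted p = 8.12e-07). DMKN, an epidermal secreted protein, went from 0.718 and 0.896 to 5.96 and 7.44 CPM in BEAS-2B and from 22.8 and 21.7 to 10.6 and 10.2 CPM in A549 (difference 4.12 ± 0.28).

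SR11302 and SP600125 in BEAS-2B were compared at their own doses, 10 and 50 µM, so the values describe 2 treatments and not 2 equal doses. SR11302 was higher than SP600125 in 2961 genes (18.1%) and lower in 2561 (15.6%). Cholesterol enzymes gave 17 higher of 20, HMGCS1 standing at 348 and 277 CPM with SR11302 and 45.7 and 52.8 CPM with SP600125 (2.67 ± 0.13, adjusted p = 3.03e-08). Of the p53 targets 18 of 27 were lower with SR11302 than with SP600125 and 1 was higher. Matrix glycoproteins gave 17 higher and 2 lower of 34, and collagen chains 13 and 6 of 31, COL4A1 standing at 244 and 216 CPM with SR11302 and 336 and 384 CPM with SP600125 (-0.65 ± 0.12). COL5A3, COL27A1, ABCA1 and JAG1 were also lower with SR11302 than with SP600125 (-2.07 ± 0.19, -1.91 ± 0.19, -3.3 ± 0.21 and -1.77 ± 0.12). SREBF2 and TIMP3 were higher (1.41 ± 0.10 and 3.28 ± 0.21). These lists also moved with SP600125 against NT, where 21.2% of all genes were called higher and 22.6% lower. There 1 cholesterol enzyme was higher and 13 were lower, and 18 p53 targets were higher and 1 was lower. Matrix glycoproteins gave 2 higher and 18 lower in that comparison, and collagen chains 3 and 19.

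The 6 largest called differences toward SR11302 were in GALNT5, THBS2, TNC, CDH6, SPOCD1 and ITGA4. TNC, tenascin C, stood at 575 and 518 CPM with SR11302 and 18.5 and 29.9 CPM with SP600125 (4.5 ± 0.29), against 753 and 776 CPM in NT. THBS2, a thrombospondin, stood at 824 and 732 CPM with SR11302, 12.9 and 30.9 CPM with SP600125 and 469.5 and 464 CPM in NT. The 6 largest toward SP600125 were in COBL, SMOC1, INPP5D, GNG4, ADM2 and NR4A2. SMOC1, a secreted calcium-binding modulator, stood at 20.3 and 20.8 CPM with SR11302 and 394 and 359 CPM with SP600125 (-4.19 ± 0.13).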

How the data were processed

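RNA-seq libraries of poly(A) RNA were made from BEAS-2B and A549 cells, 2 per group. Per the labels and the study's methods, the authors aligned reads to hg38 with STAR 2.7.10a and counted them per gene with HTSeq 1.99.2; for the annotation version, strand setting and read length nothing is stated in the sources used here, so antisense and overlapping genes may share reads. The deposited values are raw counts per gene symbol, with tallies of reads in no gene (14.6 to 25.8% in BEAS-2B) left out of library sizes.

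Genes were filtered with filterByExpr, scaled by TMM and fitted with edgeR 4.0.16 (R 4.3.3, limma 3.58.1) in 1 quasi-likelihood model of all 12 libraries and 6 groups (6 residual degrees of freedom), with Benjamini-Hochberg adjustment over all 16373 genes. Genes were called at an adjusted p below 0.05 where the log2 fold change was 0.5 or more in size. The SE is the fold change divided by the root of the F statistic. The script was tested on simulated data. Exon windows of 50 bases, taken every 10 bases, were searched in hg38 for unique sequence with GENCODE gene models, which matched 24508 of 26485 symbols, 1347 through an older symbol. The members and the 33 gene lists were chosen with earlier results of these data known. The genes named were members of these lists, plus the 12 largest called changes per direction in the main comparison and the 6 largest per direction in the other 2, among genes with at least 10 CPM in the higher group and at least 95% unique windows, leaving out unnamed loci, noncoding and pseudogenes and those that differed 4-fold between the NT libraries. A few items are not reported here. Alternatives were library size or RLE scaling, DESeq2 1.42.0, no filter, no fold minimum, a replicate block, unique genes alone, the 4 libraries alone, each library left out, and, chosen after seeing the data, the 4 libraries with the block and the removal of genes that differ 4-fold between NT libraries.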

Additional observations from a re-analysis of the deposited data

Results flagged for a closer look

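The response to SR11302 differed between BEAS-2B and A549, by the test of the interaction itself, in 1213 genes toward BEAS-2B and 1366 toward A549. Among AP-1 subunits the differences in log2 fold change (BEAS-2B minus A549) were 2.8 for FOS, 3.66 for FOSB, 1.32 for JUNB, 1.28 for JUND and 1.26 for FOSL1. The lipid genes HMGCS1 (2.11) and FADS2 (1.81) also responded higher in BEAS-2B, and ABCA1 (-3.78) lower. The p53 targets CDKN1A (-1.94) and MDM2 (-1.74), the matrix genes COL4A1 (-2.88), COL4A2 (-1.74), COL5A1 (-2.73) and FN1 (-2.47), and TXNIP (-2.62) responded lower in BEAS-2B. Among the largest differences by the naming rule were those of CDKN2A (6.36), NPY1R (4.27), DMKN (4.12) and NR4A1 (3.46) toward BEAS-2B and of RGS4 (-8.00), TLR4 (-7.52), MYEOV (-6.11), FAM196B (-5.99), NEFL (-5.86) and LGSN (-5.74) toward A549, several of them against groups with libraries at 0. Outside the gene counts, reads aligned to several places averaged 20.3% of tallied reads in the BEAS-2B SR11302 libraries, above the 17.5% of the NT libraries. Groups of 2 libraries were not tested for outliers.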

How the results depend on the processing

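No gene named and called in the main comparison changed direction under any alternative run, and the counts of called genes over all genes moved by over 1.5 times as given here. Leaving out 1 BEAS-2B library gave 1129 to 1691 higher and 1171 to 1536 lower genes, and unique genes alone gave 1008 lower. For the interaction the range over libraries left out was 587 to 2336 higher and 744 to 2432 lower. Interferon-stimulated genes called higher numbered 15 to 20 with 1 library left out. TGF-beta family genes called lower numbered 8 with the 4 libraries alone, 8 with these and the replicate block, and 9 with no fold minimum, against 5. The replicate block in the fit of all libraries gave 1791 higher and 1715 lower genes. Deviations of same-numbered NT and SR11302 libraries from their group means correlated only weakly (0.05). With 2 libraries per group these deviations mirror each other, so the check cannot decide whether libraries were paired. A fit with 1 library left in a group assumes that it varies like the other groups. The 4 libraries held 16782262 to 24917854 reads in genes, and the smallest change detectable at this depth with 2 libraries per group was not computed.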
